A study of Mus musculus with 2 samples.

Results

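A set of 9 genes of ileal bile acid and vitamin B12 handling was followed in single-cell RNA sequencing of organoids from mouse distal small intestine, a culture system in which gut epithelium grows from stem cells and makes its mature cell types in a dish. The 9 genes, Fabp6, Slc10a2, Slc51a, Slc51b, Nr1h4, Nr0b2, Fgf15, Cubn and Amn, were taken by name from the 22253 genes of the count matrix, and all 9 were found there. In mm10 (GENCODE vM21) all 9 are protein-coding genes: Slc10a2 at chr8:5083219-5105351, Slc51a at chr16:32474504-32487879, Slc51b at chr9:65412714-65422955, Nr1h4 at chr10:89454234-89533585 and Cubn at chr2:13276338-13491813 on the minus strand, as Fabp6 is, and Nr0b2 at chr4:133553376-133556536, Fgf15 at chr7:144896531-144900953 and Amn at chr12:111271095-111276426 on the plus strand. The study compared 3 Etv1 mutant cultures with 2 control cultures, which the labels call biological replicates. Etv1 encodes an ETS transcription factor. All 5 cultures carried the genotype Neurog3-RFP;Gcg-Venus, a pair of reporters for the enteroendocrine lineage and for proglucagon cells, and they were sorted, tagged with hashtag oligonucleotides and pooled into 1 run. The labels state neither the Etv1 allele nor the sort gate, and they give no animal, age or clone, so what the mutant cultures model is known only as far as that name.

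Bile acids reach the ileum with the meal and are taken back up there. Slc10a2 is the apical sodium-dependent transporter that brings them into the enterocyte, Fabp6 is the ileal bile acid binding protein of the cytosol, and Slc51a and Slc51b are the alpha and beta subunits of the basolateral exporter, each needed by the other. Nr1h4 encodes FXR, the nuclear receptor that senses bile acids and induces Fabp6, the exporter, Nr0b2 (the corepressor SHP) and Fgf15, a hormone that lowers bile acid synthesis in the liver. Cubn and Amn encode cubilin and amnionless, which together form the ileal receptor for vitamin B12 bound to intrinsic factor.

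Both libraries held the same 3409 barcodes, of which 2725 passed the cell filter and 1432 were assigned to 1 culture. The mutant cultures gave 282, 281 and 197 cells and the control cultures 323 and 349. Summed counts of unique molecular identifiers (UMIs) ran from 4193197 to 7254380 per culture. Levels are counts scaled to a total of 1000000 UMIs (CPM), from counts summed over the cells of a culture. Gene length was not corrected for, so levels are compared between cells and cultures and not between genes. Control culture 2 was the least certain in its assignment. A second method gave no single culture to 133 of its 349 cells, against 39 to 51 cells in each of the other cultures. Etv1, the check of the labels, had 20, 20 and 13 counts in mutant cultures and 45 and 44 in control cultures. Enteroendocrine-like cells held 93.7% of these counts and made up 3.54% ± 1.04 of mutant and 5.38% ± 0.715 of control cells (SD, n = 3 and 2). Within them Etv1 stood at 152.3 ± 36.9 CPM in mutant and 213.8 ± 40.9 CPM in control cultures, so the counts over all cells also move with the share of these cells.

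Clustering without the 9 genes gave 12 clusters, and 2 of them, with 235 cells, had enough enterocyte markers to be called enterocyte-like. One was led by Apoa1, Reg3b and Apoc3 (84 cells, 13 of 14 enterocyte markers past the naming bounds, 3 among its top 10 genes), and Fabp6 was among its top 10 genes although it was left out of the clustering. The other was led by F3, Lgals3, Sprr2a3 and Anxa1 (151 cells, 8 of 14 markers, 0 among its top 10 genes). The mutant cultures held 41, 70 and 28 enterocyte-like cells, or 17.9% ± 6.08 of their cells (SD, n = 3). The control cultures held 56 and 40, or 14.4% ± 4.16 (SD, n = 2). These shares did not differ beyond the spread between cultures (exact permutation test, two-sided, p = 0.8; with 10 possible splits the smallest p is 0.1). In the Apoa1-led cells all 14 enterocyte markers were detected in every culture. The 6 tuft cell markers were at 0 in every culture, and at most 1 of 11 enteroendocrine markers was detected. Tuft markers were also scarce over all cells, with sums of 0.321 to 10.7 CPM. Markers of other lists were present in the Apoa1-led cells: 7 to 9 of 9 Paneth, 6 to 7 of 8 stem and 4 to 6 of 9 goblet markers per culture. Their sums reached 220.9 CPM for Paneth, 137.2 CPM for stem and 328.3 CPM for goblet markers.

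The promoters of the uptake, binding and export genes are shown because these 4 genes of 1 transport route were found in the same cell classes. Each window runs from 250 bases before to 50 bases after the start of the gene (RefSeq, build GRCm38.p6, minus strand: Fabp6 chr11:43601513-43601812, Slc10a2 chr8:5105238-5105537, Slc51a chr16:32487830-32488129 and Slc51b chr9:65422724-65423023). Capitals mark matches to the motif described after them.
Fabp6: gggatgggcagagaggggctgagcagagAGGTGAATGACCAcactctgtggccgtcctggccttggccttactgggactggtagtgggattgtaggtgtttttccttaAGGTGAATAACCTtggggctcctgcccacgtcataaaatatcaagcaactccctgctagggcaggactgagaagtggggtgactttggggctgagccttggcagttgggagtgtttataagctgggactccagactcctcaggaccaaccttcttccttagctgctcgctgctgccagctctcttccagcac
Slc10a2: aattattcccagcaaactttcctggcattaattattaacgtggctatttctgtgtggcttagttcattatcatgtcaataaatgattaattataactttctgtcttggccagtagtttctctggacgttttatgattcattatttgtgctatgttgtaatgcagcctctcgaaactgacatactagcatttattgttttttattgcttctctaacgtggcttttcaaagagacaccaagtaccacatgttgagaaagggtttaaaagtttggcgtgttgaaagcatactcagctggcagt
Slc51a: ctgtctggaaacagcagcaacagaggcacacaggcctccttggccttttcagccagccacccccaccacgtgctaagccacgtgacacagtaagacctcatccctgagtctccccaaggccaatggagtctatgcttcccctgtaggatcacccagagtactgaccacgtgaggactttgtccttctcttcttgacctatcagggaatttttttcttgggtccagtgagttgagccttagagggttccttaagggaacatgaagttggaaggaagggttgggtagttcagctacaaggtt
Slc51b: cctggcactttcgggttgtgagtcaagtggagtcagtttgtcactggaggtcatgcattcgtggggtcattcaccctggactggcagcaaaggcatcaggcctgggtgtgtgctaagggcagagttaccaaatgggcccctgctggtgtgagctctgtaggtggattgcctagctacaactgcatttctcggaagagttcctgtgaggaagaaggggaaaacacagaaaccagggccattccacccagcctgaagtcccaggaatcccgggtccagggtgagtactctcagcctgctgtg

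The motif searched on both strands was the inverted repeat that FXR with its partner RXR is known to bind, IR-1, spelled AGGTCANTGACCT, with up to 2 mismatches. The Fabp6 promoter held 2 IR-1 matches, AGGTGAATGACCA starting 222 bases and AGGTGAATAACCT starting 142 bases before the start. Of 32851 mouse promoters of this length, 374 (1.14%) held at least 1 such match and 4 (0.0122%) held 2 or more. The windows of Slc10a2, Slc51a and Slc51b held no match. Among the other genes, Cubn held 1 match with 2 mismatches, and Nr1h4, Nr0b2 and Amn held none. The window of Nr1h4, chr10:89506609-89506908, lies at a RefSeq start inside the GENCODE span of the gene and not at its outermost start. Promoter entries were matched for 8 of the 9 genes, and the search describes letters only.

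Uptake, binding and export genes lay almost wholly in the enterocyte-like cells. These cells made up 235 of 1432 cells and held 95.3% of the 8295 Fabp6 counts, 93.6% of 780 Slc10a2 counts, 96.5% of 1608 Slc51a counts and 92.0% of 649 Slc51b counts. The Apoa1-led cells had the higher level in each of the 5 cultures for all 4 genes. Because clusters were made from the same cells, these levels are a description and carry no test.

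For Fabp6 (chr11:43596049-43601540, minus strand, mm10), Apoa1-led cells averaged 2313 ± 1703 CPM and Lgals3-led cells 510.2 ± 339.1 CPM (SD over 5 cultures). The other classes averaged between 9.77 and 72.7 CPM, and the top of that range was the unnamed cluster with defensins among its leading genes, whose cells held a median of only 1340 UMIs. Below the enterocyte-like cells, the ranges of the neighbouring classes overlapped and gave no order. In enteroendocrine-like cells, which should lack the gene, 2 of 62 cells (3.23%, median 9591 UMIs) held a Fabp6 count, against 141 of 235 enterocyte-like cells (60%, median 27782 UMIs). After each cell was thinned to 3832 UMIs, which left out 144 shallower cells, the shares were 1.82% in enteroendocrine-like, 4.10% in stem-like, 7.88% in cycling-like and 40.3% in enterocyte-like cells. The enterocyte-like share lay well above all of these, and whether free RNA gave the counts in the other classes was not tested.

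Slc10a2, the uptake transporter, averaged 177.9 ± 49.7 CPM in Apoa1-led cells and 88.9 ± 55.0 CPM in Lgals3-led cells. Elsewhere its highest class mean was 16.9 CPM, in the unnamed cluster led by mitochondrial genes. Slc51a averaged 468.2 ± 84.0 CPM in Apoa1-led and 145.8 ± 58.7 CPM in Lgals3-led cells, and at most 7.03 CPM in any other class. Slc51b averaged 167.3 ± 21.0 CPM in Apoa1-led and 53.0 ± 39.4 CPM in Lgals3-led cells, and it was at 0 counts in enteroendocrine-like cells. Both subunit genes of the exporter ranked the enterocyte-like clusters alike. Outside these clusters the highest Slc51b mean was 18.3 CPM, in the shallow defensin cluster.

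The receptor gene Nr1h4 was less restricted, with 64.8% of its 684 counts in enterocyte-like cells. It averaged 88.1 ± 20.8 CPM in Apoa1-led and 59.9 ± 15.7 CPM in Lgals3-led cells, and the Apoa1-led level was the higher one in 4 of 5 cultures. Cycling-like cells averaged 9.50 ± 2.96 CPM and stem-like cells 8.53 ± 1.97 CPM, against 2.01 ± 4.48 CPM in enteroendocrine-like cells (SD, n = 5). The unnamed clusters of shallow cells averaged more, 49.2 ± 66.5 CPM in the defensin cluster and 24.9 ± 13.9 CPM in the mitochondrial one. After thinning, 19.9% of enterocyte-like, 3.59% of stem-like and 1.82% of enteroendocrine-like cells held an Nr1h4 count.

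The FXR targets Nr0b2 and Fgf15 had very few counts. Nr0b2 gave 1 count among all analysed cells, in mutant culture 2, and 0 in the other 4 cultures, which allows up to 3 counts in each. Fgf15 gave 17 counts in 8 cells, and 7 of them came from 1 cell of mutant culture 1. By culture, Fgf15 had 8, 4 and 2 counts in mutant cultures and 1 and 2 counts in control cultures. Its level was 1.28, 0.612 and 0.477 CPM in mutant cultures and 0.138 and 0.286 CPM in control cultures, which do not overlap, but the counts were too few to be tested. Among all genes tested over all cells, the groups did not overlap in 17%. Of the 17 counts, 14 lay in Lgals3-led cells and 0 in Apoa1-led cells, where 0 of 84 cells allows a share of cells with a UMI of up to 3.57% and sets no limit on the share that express the gene. That placement depended on the clustering: when all filtered barcodes were clustered together, the assigned cells called enterocyte-like held 5 of the 17 counts. Of the 17 counts, 15 lay in cells with no Fabp6 count, as were 1063 of all 1432 analysed cells.

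The partners of the vitamin B12 receptor differed in how widely they were found. Amn counts were spread over all classes, and enterocyte-like cells held 42.2% of 2063 counts. Amn averaged 258.2 ± 26.5 CPM in Apoa1-led and 83.7 ± 21.6 CPM in Lgals3-led cells, and stem-like cells still averaged 44.3 ± 11.7 CPM (SD, n = 5). The shallow cells of the mitochondrial cluster averaged 109.8 ± 53.8 CPM, above the Lgals3-led mean. Thinned shares of cells with an Amn count were 40.3% in enterocyte-like, 14.1% in stem-like and 9.09% in enteroendocrine-like cells. Cubn had 75 counts in all, 85.3% of them in enterocyte-like cells. Of the 38 enterocyte-like cells with a Cubn count, 37 also held an Amn count, whereas 160 enterocyte-like cells held Amn without Cubn.

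**Figure D1:**
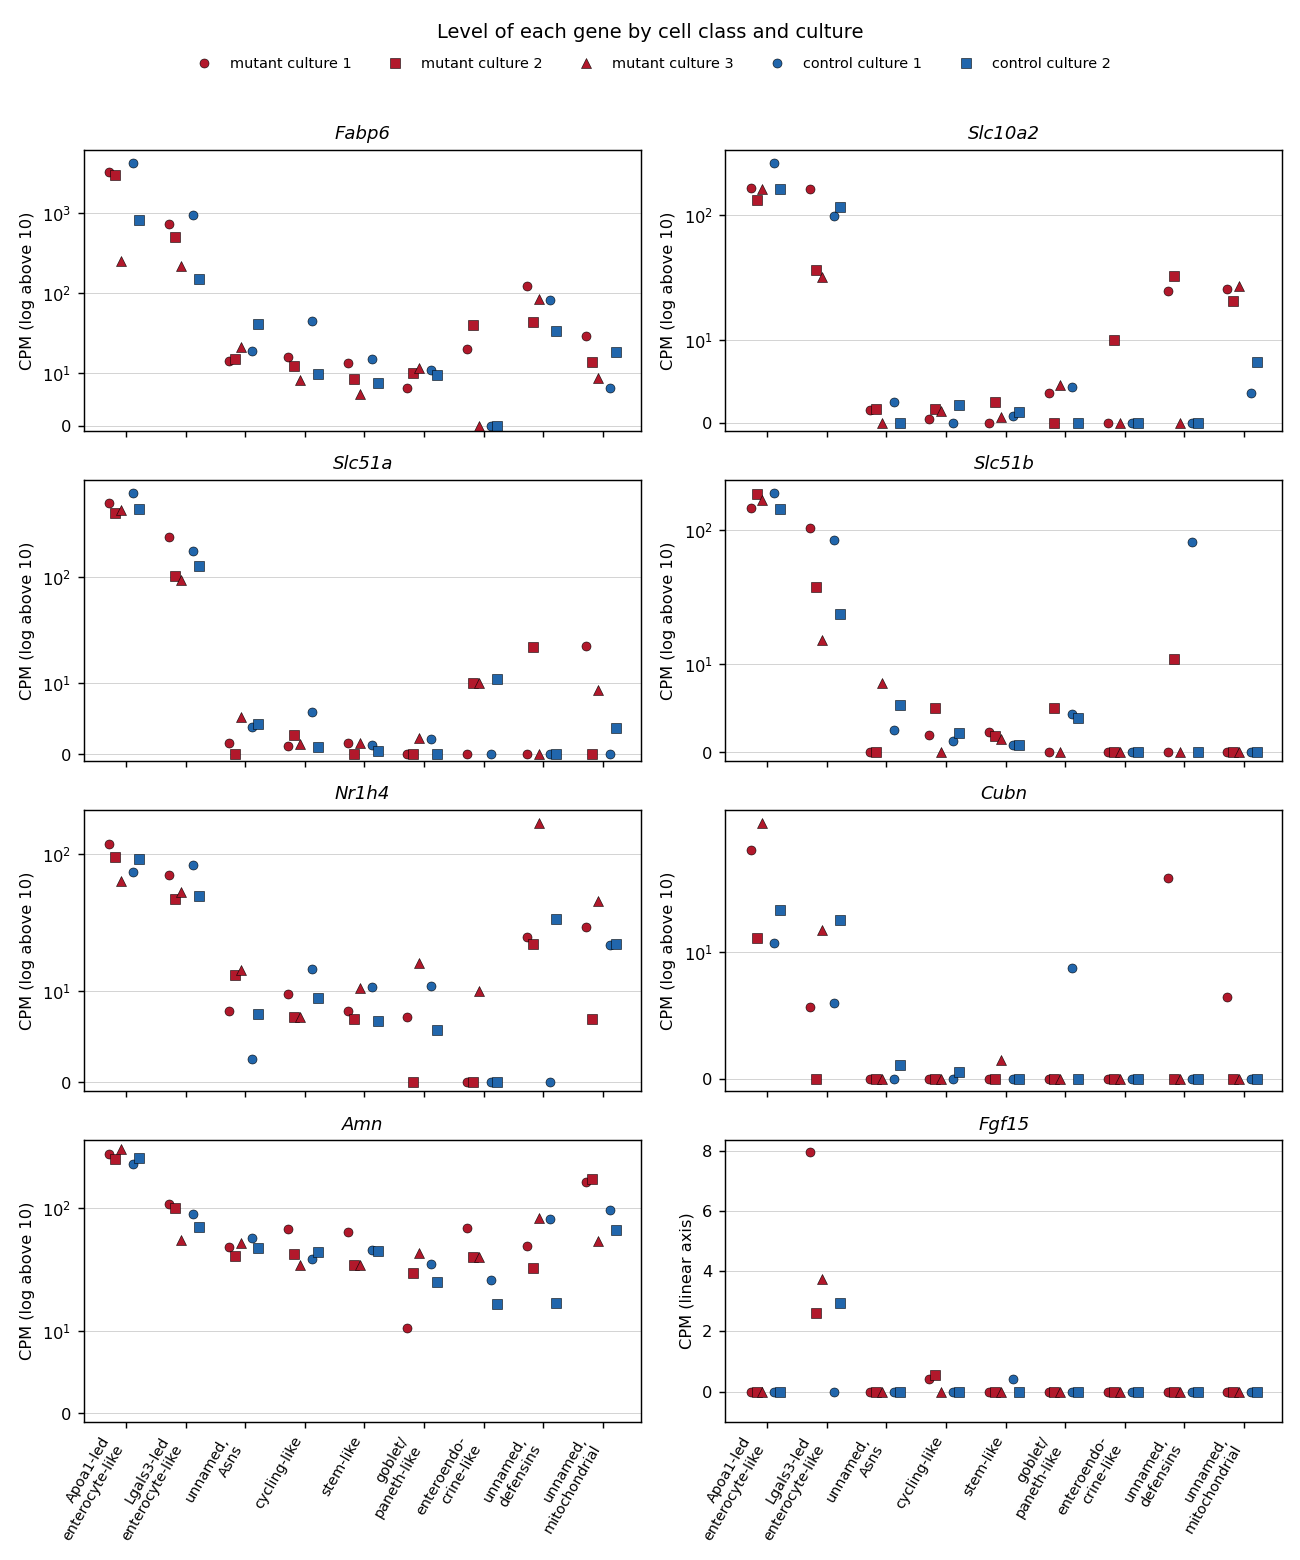
Level of 8 genes (CPM; logarithmic above 10 except for Fgf15) in each cell class, 1 point per culture, mutant in red and control in blue. Fabp6, Slc10a2, Slc51a and Slc51b are highest in the enterocyte-like clusters, with class means elsewhere of at most 72.7 CPM for Fabp6 and 7.03 CPM for Slc51a, while Amn is found in every class.

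No gene of the set passed as different between mutant and control cultures. Of the 9, 7 had enough counts to be tested over all cells (edgeR quasi-likelihood test, 11061 genes), and Nr0b2 and Fgf15 did not. None passed in either direction, where 0% of all tested genes were higher and 0.00904% (1 gene) lower, and DESeq2 and edgeR gave the same count of 0 for the set. At an unadjusted p under 0.05, 0 of 7 were found, against 3.05% of all tested genes. For none of the 7 did the mutant values lie wholly above or below the control values, which held for 17.0% of all tested genes.

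Over all cells, Fabp6 stood at 222.1, 486.8 and 47.9 CPM in mutant cultures and at 433.1 and 54.7 CPM in control cultures. High and low cultures thus occurred in both groups, and the log2 fold change was 0.04 (SE 0.99; edgeR adjusted p = 1.0). Its 95% interval was −2.29 to 2.37, and the value was 2.22 without control culture 1, −0.80 without control culture 2, −0.87 without mutant culture 2 and 0.51 without mutant culture 3, none with an adjusted p under 0.05 in edgeR. Slc51a stood at 51.2, 70.2 and 33.1 CPM in mutant and 67.7 and 28.6 CPM in control cultures, with a log2 fold change of 0.10 (SE 0.40; edgeR adjusted p = 1.0). Slc51b stood at 20.8, 32.7 and 11.4 CPM in mutant and 26.6 and 9.14 CPM in control cultures (log2 fold change 0.30, SE 0.51). For the exporter genes, as for Fabp6, mutant culture 3 and control culture 2 were the lowest cultures of their groups. These whole-culture levels mix the number of enterocyte-like cells with the level in each.

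Slc10a2 stood at 30.1, 26.0 and 13.1 CPM in mutant and 33.1 and 18.1 CPM in control cultures, a log2 fold change of −0.13 (SE 0.36). Nr1h4 stood at 21.8, 25.7 and 20.3 CPM in mutant and 26.2 and 14.998 CPM in control cultures (0.13, SE 0.24). Amn had the narrowest interval, −0.17 to 0.70 around a log2 fold change of 0.26 (SE 0.19), from 78.4, 78.7 and 53.7 CPM in mutant and 64.2 and 52.6 CPM in control cultures. The intervals of Amn, of Nr1h4 (−0.44 to 0.70) and of Slc10a2 (−0.97 to 0.71) lay within 1 log2 unit of 0, and those of the other 4 genes did not. Cubn, with 15, 10 and 18 counts in mutant and 16 and 16 counts in control cultures, gave 0.21 (SE 0.45).

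Within enterocyte-like cells, where 7271 genes were tested, again 7 of the 9 were tested and none passed, and 0% of all tested genes passed in either direction. DESeq2 also gave 0 genes there, and 2.70% of genes had an unadjusted p under 0.05 in edgeR, with 0 of the 7 among them. Groups did not overlap in 16.1% of all tested genes and in none of the 7. Fabp6 stood at 1201, 1570 and 226.5 CPM in mutant and 1863 and 322.8 CPM in control cultures (log2 fold change −0.15, SE 0.73). Leaving out control culture 1 moved this value to 1.65, and leaving out control culture 2 moved it to −0.91, neither with an adjusted p under 0.05.

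For Slc10a2 within these cells, the mutant cultures stood at 162.4, 77.8 and 66.3 CPM and the control cultures at 143.9 and 128.3 CPM. Mutant culture 1 lay above both control cultures and the other mutant cultures below them, and the log2 fold change was −0.42 (95% interval −1.13 to 0.29; edgeR adjusted p = 1.0). Slc51a stood at 282.4, 226.4 and 178.2 CPM in mutant and 293.4 and 206.5 CPM in control cultures (−0.14, interval −0.62 to 0.35). The other 4 ranged from −0.08 for Nr1h4 to 0.19 for Amn. Enterocyte-like cells with a Fabp6 count after thinning made up 32.9% ± 8.26 in mutant cultures (SD, n = 3) and 44.8% ± 16.3 in control cultures (SD, n = 2), which did not differ beyond the spread (two-sided exact permutation test, p = 0.4). Neither enterocyte-like cluster had 20 cells in every culture, so neither was tested alone.

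**Figure D2:**
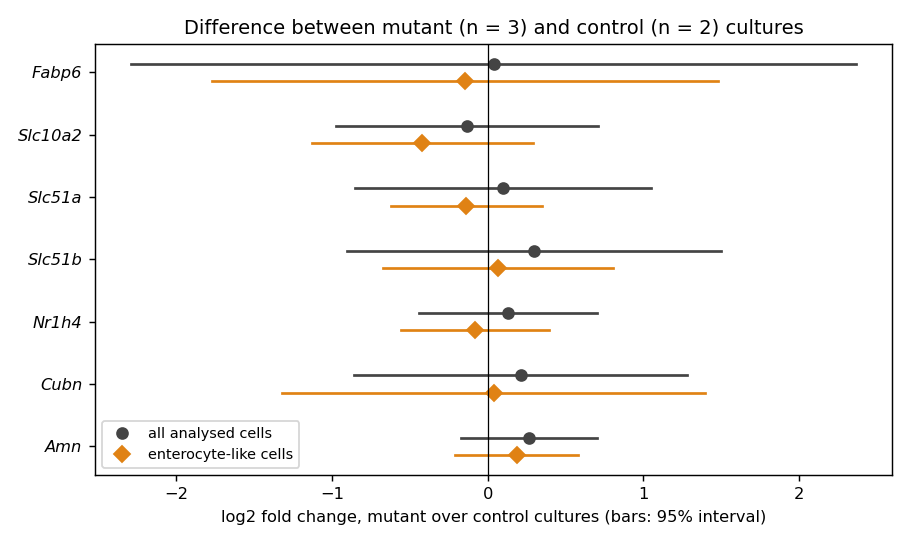
Log2 fold change of mutant over control cultures with its 95% interval for the 7 genes with enough counts, over all analysed cells (circles) and within enterocyte-like cells (diamonds). Every interval spans 0, and the interval of Fabp6 over all cells is the widest, from −2.29 to 2.37.

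Fabp6 differed most between cultures, and its high and low cultures were found in both genotypes. In Apoa1-led cells Fabp6 stood at 3253, 3014 and 248.8 CPM in mutant cultures and at 4239 and 811.7 CPM in control cultures, a ratio of 17.0 between the highest and the lowest culture. The uptake and export genes had smaller ratios in the same cells. Slc51a stood at 489.9, 397.0 and 418.2 CPM in mutant and 605.2 and 430.7 CPM in control cultures, a ratio of 1.52. Slc51b had a ratio of 1.31, Amn 1.31, Nr1h4 1.85 and Slc10a2 1.97, and Cubn, with 35 counts in these cells, 4.27. Among the 1619 genes with at least 150 counts in Apoa1-led cells, the median ratio was 1.55, and Fabp6 ranked 5 from the top. No test was made of this ratio, which was chosen after its values were seen.

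The ratio of Fabp6 depended on how cells were weighted. With the mean of per-cell CPM in place of summed counts it was 3.92, with mutant culture 3 at 959.7 CPM and control culture 2 lowest at 830.9 CPM. It was 5.22 without mutant culture 3, 13.1 without control culture 1, 8.23 over both enterocyte-like clusters, and 19.5 without the cell richest in Fabp6 of each culture. Restricting to the 66 cells that both assignment methods placed alike gave 21.6, with control culture 1 at 1382 CPM. Cells per culture were few (12, 30 and 10 in mutant, 19 and 13 in control cultures), and the cells of mutant culture 1 were shallower, with a median of 12137 UMIs, against 28659 and 23595 UMIs in the other mutant cultures and 24018 and 20497 UMIs in control cultures. The summed level of 14 enterocyte markers ran from 15027 to 22754 CPM in mutant and 17580 to 23106 CPM in control cultures. It was highest in control culture 2 and mutant culture 3, the cultures low in Fabp6. Paneth markers also had their highest sum, 220.9 CPM, in control culture 2. Cycling markers summed to between 74.1 and 112.7 CPM in mutant cultures and to 341.7 and 95.3 CPM in control cultures, and goblet markers to between 139.4 and 280.6 CPM in mutant cultures and to 328.3 and 87.0 CPM in control cultures. The part of these values in the result was not tested.

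**Figure D3:**
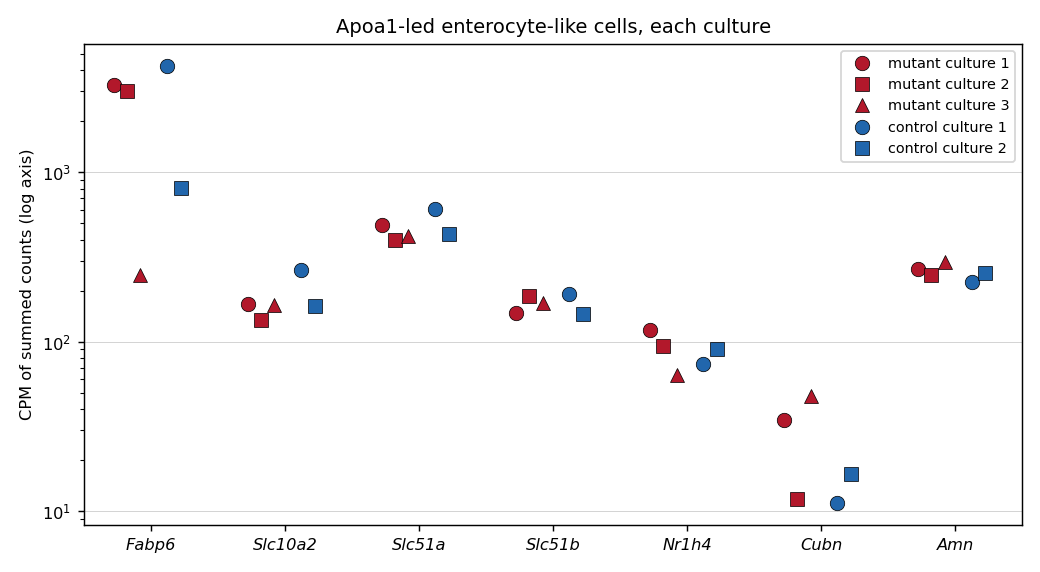
Level of 7 genes in Apoa1-led enterocyte-like cells (CPM of summed counts, logarithmic axis), 1 point per culture, mutant in red to the left of control in blue. Fabp6 spans 17.0-fold between cultures and Slc51a 1.52-fold, and the low Fabp6 values belong to 1 mutant and 1 control culture.

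The level of Fabp6 in a culture rested on a minority of cells. Of the 84 Apoa1-led cells, 30 held no Fabp6 count, 19 held 1 to 9, 19 held 10 to 99 and 16 held 100 or more. The richest cell, in mutant culture 2, held 942 counts, and the 5 richest held 53.3% of all counts. Cells with no Fabp6 count numbered 6 of 12, 9 of 30 and 5 of 10 in mutant cultures and 5 of 19 and 5 of 13 in control cultures, so such cells were found in all 5. Cells with 100 or more numbered 3, 7 and 0 in mutant cultures and 5 and 1 in control cultures. Mutant culture 3 and control culture 2 thus had cells with Fabp6 but few or none with 100 counts or more. These bounds are raw counts and were not scaled to depth. The richest Apoa1-led cells of mutant culture 3 held 19 and 17 counts among only 4065 and 3734 UMIs. A cell of mutant culture 1 above the bound held 127 counts among 27004 UMIs. In Lgals3-led cells 64 of 151 held no count and 5 held 100 or more. None of the other genes reached 100 counts in an enterocyte-like cell: the richest cells held 40 counts of Slc51a, 31 of Slc10a2 and 17 of Slc51b.

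**Figure D4:**
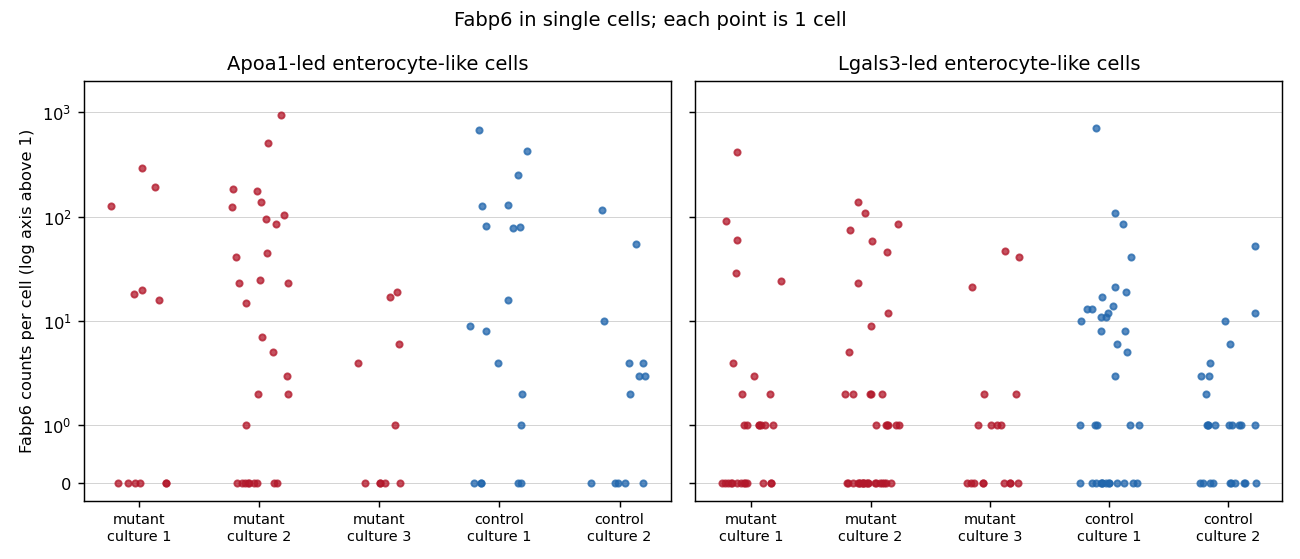
Fabp6 counts in each enterocyte-like cell (logarithmic above 1), by culture, mutant in red to the left of control in blue, with Apoa1-led cells in the left panel and Lgals3-led cells in the right panel. Each culture holds cells at 0, while 16 of 84 Apoa1-led cells hold 100 counts or more and the richest holds 942.

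Apoa1-led cells without a Fabp6 count held the other genes of the transport route. In the 35 cells with 10 or more Fabp6 counts (median 29928 UMIs), Slc51a stood at 545.6 CPM, Slc51b at 200.2, Slc10a2 at 201.2, Nr1h4 at 112.0 and Amn at 224.0 CPM. In the 30 cells at 0 (median 21936 UMIs), Slc51a stood at 312.4 CPM, Slc51b at 155.3, Slc10a2 at 155.3, Nr1h4 at 72.8 and Amn at 249.2 CPM. Cubn stood at 17.6 CPM in the rich cells and 23.0 CPM in the cells at 0. Within cultures, Slc51a was higher in the rich cells in 5 of 5 cultures, although by less than 1 CPM in mutant culture 3, which had 2 rich cells. Slc51b and Nr1h4 were higher in 4 of 5 cultures, Slc10a2 and Cubn in 3 of 5 and Amn in 1 of 5. Slc10a2, for example, stood at 74.1 CPM in the rich cells of mutant culture 1 and 347.4 CPM in its cells at 0, and 6 of the 12 Cubn counts in cells at 0 came from mutant culture 3. The apolipoprotein genes had lower pooled levels in the rich cells. Apoa1, a lipoprotein component secreted by enterocytes, stood at 1319 CPM in the cells with 10 or more Fabp6 counts and at 5470 CPM in the cells at 0. Apoa4, a related gene that is higher in the proximal gut, stood at 79.9 CPM in the rich cells and 438.9 CPM in the cells at 0, and it was lower in the rich cells than in the cells at 0 in each of the 5 cultures. For Apoa1 this held in 4 of 5 cultures, and the exception, mutant culture 3, had 2 rich cells. Lower levels in the rich cells were not limited to apolipoprotein genes. The enterocyte marker Sis was lower in 5 of 5 cultures, and Alpi and Gata4 in 4 of 5. Fabp1 and Fabp2 had no common direction, each higher in 3 of 5 cultures and lower in 2. Cells share a culture and a library, so these are descriptions.

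**Figure D5:**
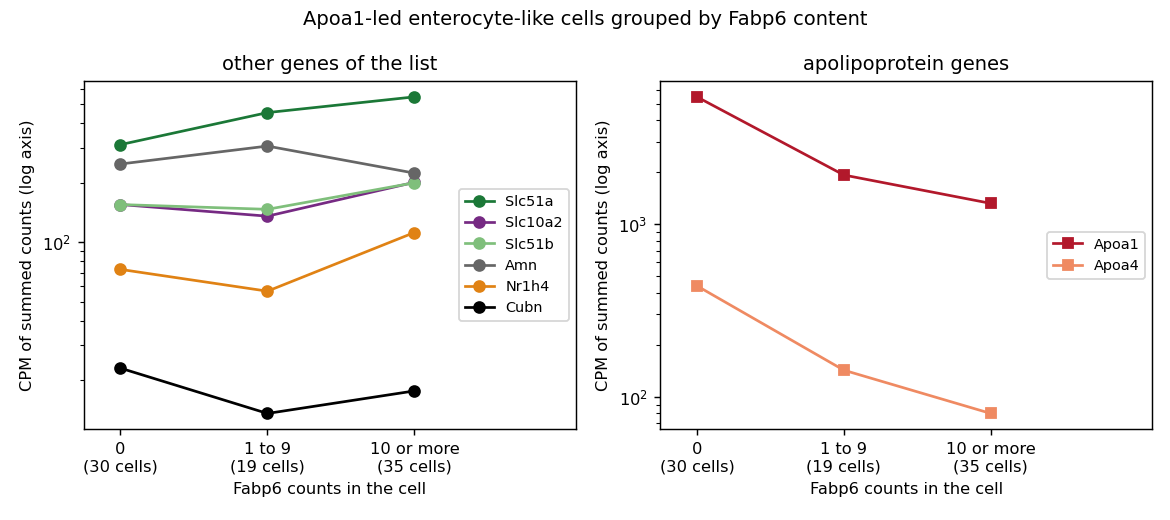
Level of the other genes (left) and of the apolipoprotein genes Apoa1 and Apoa4 (right) in Apoa1-led cells grouped by their Fabp6 counts (CPM of summed counts over cultures, logarithmic axes). Slc51a is 545.6 CPM in cells with 10 or more counts and 312.4 CPM in cells at 0, while Apoa4 is 79.9 CPM in cells with 10 or more and 438.9 CPM in cells at 0.

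The subunit genes of the exporter were often found in the same cells. Among 235 enterocyte-like cells, 133 held counts of both Slc51a and Slc51b, 50 of Slc51a alone, 11 of Slc51b alone and 41 of neither. Within cultures, the rank correlation of their per-cell levels averaged 0.49 and ran from 0.34 to 0.75, over both enterocyte-like clusters together. Within Apoa1-led cells alone the mean was 0.30, against 0.33 for Fabp6 with Slc51a and 0.31 for Slc51b with Nr1h4. Over both clusters Slc51a with Amn averaged 0.45, Fabp6 with Slc51a 0.35, and Fabp6 with Slc10a2 only 0.13. Depth is shared by all genes of a cell. Each correlation is a description over 28 to 70 cells per culture, or over 10 to 30 in Apoa1-led cells alone. Both the uptake transporter and the binding protein were detected in 87 enterocyte-like cells, Slc10a2 alone in 50, Fabp6 alone in 54 and neither in 44.

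Genes with the most similar pattern were sought among 8574 genes with at least 200 counts, by Pearson correlation of log2(CPM + 10). Over the 45 sums of a class in a culture, Fabp6 was nearest to Mt4 (0.93), Gsta1 (0.93), Gm3776 (0.91), 2200002D01Rik (0.91) and Reg3g (0.91), and Slc51a ranked 7. Over 9 class means it was nearest to Chp2, Mpp1, Srxn1, Hkdc1 and Gsta2. Slc10a2 was nearest to Slc51a (0.94), then to Dpep1, Cyp2c55, Ces2a and Hkdc1, over the 45 sums, and to Il17rc, Ces2a, Cyp3a13, Gna11 and Muc3 over class means. Slc51a was nearest to Dpep1 (0.97), Gm21885, Mogat2, Alpi and Slc7a9 over the sums and to Gm21885, Mogat2, Clic5, Cyp4f14 and Cyp2c55 over class means. Slc51b was nearest to Chp2 (0.95), Spink1, Slc13a1, Fmo5 and Alpi over the sums and to Srxn1, Mpp1, Fabp6, Chp2 and Prss23 over class means. Nr1h4 was nearest to Enpep (0.86), Mttp, Idh1, Ces2e and Rfk over the sums and to Themis3, Tmem253, Stk17b, Abhd17c and Snx9 over class means. Near Amn were Ces2e (0.83), Map2k2, Ugt1a10 and Mgam over the sums and Acsl5, Tkfc, Slc52a2, Bpnt1 and Adap1 over class means. The points share 5 cultures and 1 library.

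The surrounding pathway gave no call either. Of 7 lists of related genes, no tested gene passed in either direction over all cells or within enterocyte-like cells (edgeR, Benjamini-Hochberg adjustment over all genes tested). Over all cells, all tested genes had a median log2 fold change of 0.00. For the 14 bile acid nuclear receptors and ileal transcription factors it was 0.14, with 12 above 0, among them Ppara (0.77, SE 0.35), Cdx1 and Hnf4g. For the 8 tested of 16 other bile acid transporters and enzymes it was 0.23, with all 8 above 0. Of these Ugt1a1, a conjugating enzyme, stood at 28.7 CPM in mutant and 17.6 CPM in control cultures (0.72, SE 0.26), followed by Abcg2 (0.52), Abcb1a (0.18) and Cyp3a13 (0.28). Across all genes, 51.0% were above 0. The 11 tested of 14 cubilin partners and cobalamin genes had a median of −0.05, with Cd320, the cellular receptor for transcobalamin, at −0.31 (SE 0.14), then Mtrr, Lmbrd1 and Abcd4. Lrp2, the other partner of cubilin, had 0 counts. The 7 tested sterol genes had a median of 0.06, with Npc1l1 first in p (0.39, SE 0.27), then Abcg5 and Abcg8.

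Of 5 further genes for bile acid receptors and the FGF15 axis, 3 were tested over all cells. Fgfr4, the receptor for FGF15, had a log2 fold change of −0.23, Malrd1, a regulator of FGF15, −0.11 and the receptor gene S1pr2 −0.01. The fatty acid binding relatives of Fabp6 had a median of 0.65 over 4 tested genes. Fabp1, the liver-type form that is prominent in proximal gut, had the largest value of that list, 15.04 ± 8.91 CPM in mutant (SD, n = 3) and 3.05 ± 2.56 CPM in control cultures (SD, n = 2), a log2 fold change of 2.35 (SE 0.69; edgeR adjusted p = 1.0) with overlapping groups. Rbp2 (0.84), Fabp2 (0.47) and Fabp5 (0.12) followed. Of the 7 tested genes that are typical of proximal intestine, 6 were above 0, with Apoa4 at 19.9 ± 5.27 CPM in mutant and 9.29 ± 3.04 CPM in control cultures (1.07, SE 0.28) and Cyp2b10 (1.65) and Slc40a1 (0.42) next. The proximal list shares Fabp1 with the binding proteins and Gata4 with the transcription factors, so counts of these lists are not separate results. Within enterocyte-like cells Apoa4 gave 0.88 (SE 0.34), Fabp1 1.92 (SE 0.67) and Ugt1a1 0.69 (SE 0.23), again without passing. The other genes named there were among the up to 4 with the smallest p of their list, whatever the size of that p. Among the factors these were Cdx1, Hnf4g and Nr1i2 (−0.34), and among the transporters and enzymes Abcc2 (0.43), Abcg2 and Sult2b1 (−0.29). Among the cobalamin genes they were Mmadhc (−0.44), Tcn2, Lmbrd1 and Mmut, and among the binding proteins Rbp2 (0.64), Fabp5 and Fabp2. Among the proximal genes they were Slc40a1 and Otc, and among the sterol genes Npc1l1, Abcg5 and Hmgcs1. An edgeR unadjusted p under 0.05 was found for 0 factors, 0 cobalamin genes and 0 sterol genes. It was found for 1 of the transporters and enzymes, 1 binding protein and 2 proximal genes. Of the receptors and FGF15 axis, only Malrd1 was tested there (0.08). Above 0 within these cells were 10 of 13 factors (median 0.18), 6 of 7 transporters and enzymes (0.20), 4 of 7 cobalamin genes (0.26), 4 of 4 binding proteins (0.72), 4 of 4 proximal genes (0.54) and 5 of 7 sterol genes (0.05), beside 50.8% of all tested genes.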

How the data were processed

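The deposited RNA matrix holds estimated counts per gene and barcode (95.6% of the values above 0 were whole), and the deposited hashtag matrix holds raw counts per hashtag; the submitters' processing notes name Salmon 1.4.0 with alevin, Seurat 4.3.0, the mm10 build and Cell Ranger 6.1.0, without their roles. Barcodes with at least 500 genes and at most 25% mitochondrial counts were kept. HTODemux (Seurat 5.3.0, quantile 0.99) assigned 1432 of them to 1 culture, found 239 with several hashtags and 1054 with none, and MULTIseqDemux was the second method; the median barcode held 71 hashtag counts. Scrublet marked 3 of 2725 barcodes, under the share at which such a caller can be trusted, so doublets were removed by hashtags only.

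Cells were clustered in scanpy 1.11.5 (2000 variable genes without the 9 genes, 30 components, 15 neighbours, Leiden resolution 0.8) and named from at least 3 markers with a log2 fold of 0.5 in 25% of cells. Counts were summed per culture, rounded and tested with edgeR 4.0.16 (R 4.3.3; TMM, filterByExpr, quasi-likelihood, Benjamini-Hochberg adjustment over all genes tested, threshold 0.05), with DESeq2 1.42.0 as an alternative. The edgeR script was tested on simulated data. Single values were tested by exact permutation over cultures. Limits from counts cover counting error only. The intervals of log2 fold changes come from the quasi-likelihood fit and also include the estimated spread between cultures. All 9 genes were named throughout; of each pathway list the up to 4 tested genes with the smallest p were named, and for likeness the 5 nearest genes. Some genes that this rule names are not reported here. The genes and lists were chosen with earlier results of these data known. No other column of sample values was left out. The edgeR p-values set the difference between the groups against the estimated spread between these cultures. Those of the permutation test compare the observed split of these cultures with all possible splits.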

Additional observations from a re-analysis of the deposited data

Results flagged for a closer look

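Counts of these genes were also present in barcodes outside the comparisons, above the limit that a count of 0 allows. The 1054 barcodes that passed the cell filter but had no hashtag call held 7719 Fabp6, 940 Slc10a2, 1498 Slc51a, 658 Slc51b, 456 Nr1h4, 18 Fgf15, 54 Cubn and 1236 Amn counts. The 239 barcodes with several hashtags held 2323 Fabp6, 277 Slc10a2, 441 Slc51a, 189 Slc51b, 175 Nr1h4, 35 Cubn and 541 Amn counts. The 684 barcodes that failed the cell filter held 237 Fabp6, 95 Slc10a2, 103 Slc51a, 20 Slc51b, 29 Nr1h4, 46 Cubn and 246 Amn counts. Fabp6 stood at 598.5 CPM in barcodes without a hashtag, 350 CPM in those with several and 137 CPM in those failing the filter, against 266 CPM in the analysed cells. These barcodes have no culture and enter no comparison.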

How the results depend on the processing

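None of the 7 tested genes passed in any of the 12 alternatives over all cells or the 15 within enterocyte-like cells (lowest adjusted p 0.91), and 71 of 84 and 86 of 105 fold changes kept their direction. The counts of genes called moved. Over all cells DESeq2 called 2 higher and 7 lower, no filter on low counts 1 higher, MULTIseqDemux calls 2 lower and equal cell numbers 0 lower. Within enterocyte-like cells no filter called 24 higher and 14 lower, and equal cell numbers 1 higher. Leaving out 1 culture at a time gave 0 to 2 higher and 1 to 5 lower over all cells, and 0 to 2 higher and 0 to 3 lower within enterocyte-like cells. Over all cells the log2 fold change of Fabp6 became −0.012 with a stricter cell filter and −0.076 without the cell richest in Fabp6 of each culture, and that of Slc10a2 0.17 with equal cell numbers. Within enterocyte-like cells Slc51b became −0.0059 with equal cell numbers, −0.046 at Leiden resolution 1.2 and −0.0061 with the 9 genes kept in the clustering. Cubn there became −0.32 with MULTIseqDemux calls, −0.067 with equal cell numbers, −0.031 at resolution 1.2 and −0.074 with the genes kept, and Amn became −0.12 with equal cell numbers. Leaving out 1 culture at a time over all cells gave −0.87 to 2.22 for Fabp6, −0.53 to 0.38 for Slc10a2, −0.41 to 0.87 for Slc51a, −0.30 to 1.29 for Slc51b, −0.24 to 0.61 for Nr1h4 and −0.21 to 0.51 for Cubn. Within enterocyte-like cells it gave −0.91 to 1.65 for Fabp6, −0.37 to 0.17 for Slc51a, −0.34 to 0.72 for Slc51b, −0.27 to 0.18 for Nr1h4 and −0.52 to 0.58 for Cubn. The enterocyte-like share of Slc10a2 counts was 90.0% at resolution 0.5, and 69 of 70 such shares stayed within 1 SD. Differences in the share of cells with a count (percentage points, mutant minus control) turned to 1.25 for Slc51a, 5.56 for Nr1h4 and −0.33 for Amn without thinning, and to −8.44 for Slc51b, 1.43 for Cubn and −7.40 for Amn when thinned to the 25th percentile. The ratio of Fabp6 between cultures was 8.23 over both clusters and 3.92 from per-cell means, and 5.22 to 17.0 with 1 culture left out. For Slc10a2 it was 3.70 in cells placed alike by both methods and 1.25 to 1.97 with 1 culture left out, and for Slc51b 2.06 over both clusters and 2.54 from per-cell means. The causes were not tested. No paired analysis was possible because the labels give the cultures no shared replicate, batch or day. With 3 mutant and 2 control cultures the exact test cannot go below 0.1, Cubn, Nr0b2 and Fgf15 were limited by their counts, and few hashtag counts per barcode limited the assignment.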

Other observations

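The barcodes without a hashtag call were grouped by Fabp6 content in a clustering of all filtered barcodes, where 209 of them were enterocyte-like. In the 68 with 10 or more Fabp6 counts (median 29397 UMIs), Slc51a stood at 442.7 CPM, Slc51b at 192.1, Nr1h4 at 98.4, Slc10a2 at 236.3, Amn at 237.9 and Cubn at 12.2 CPM. In the 89 with none (median 7634 UMIs), Slc51a stood at 272.7 CPM, Slc51b at 133.5, Nr1h4 at 78.0, Slc10a2 at 226.8, Amn at 148.0 and Cubn at 11.3 CPM. Amn was thus higher in the rich barcodes here, whereas its pooled level was lower in the rich Apoa1-led cells of the cultures. The scopes differ, because the barcodes were not limited to an Apoa1-led cluster. Over all enterocyte-like cells, the rank correlation of Fabp6 with Amn within cultures averaged 0.17 and ran from −0.22 to 0.34. In Apoa1-led cells alone it averaged −0.064, and in the 209 barcodes it was 0.34. Whether the hashtag call had a part in the contrast in Amn was not tested. Apoa4 stood at 67.0 CPM in the barcodes rich in Fabp6 and 220.4 CPM in those at 0. Of the 18 Fgf15 counts among barcodes without a hashtag, 17 lay in 4 enterocyte-like barcodes. Barcodes with no Fabp6 count held 15 of the 18, and only 234 of all 1054 barcodes without a hashtag held a Fabp6 count. Depth differed between the barcodes grouped by Fabp6 content, and its part in the values was not tested.

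Ranked by per-cell correlation with Fabp6 within cultures among 3465 genes in the 235 enterocyte-like cells, Bcl2l15 came first (mean 0.36), followed by Slc51a (0.35), Ccl25 (0.35), Mgst1 (0.34) and Ces1f (0.32). In the 209 barcodes without a hashtag the same genes had 0.39, 0.37, 0.39, 0.35 and 0.33. Further down the ranking this did not always hold. Guca2a (rank 6) had 0.31 in cultures and 0.016 in these barcodes, and Myo1a (rank 10) 0.30 and 0.053, whereas Mgst2 (rank 11) had 0.30 and 0.36. Single cultures also varied, from 0.016 to 0.56 for Slc51a.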
